A study of Mus musculus with 5 samples.

Results

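The genes described here are 8 members of vascular endothelial growth factor (VEGF) and angiopoietin signalling: the ligands Vegfa, Angpt1 and Angpt2, and the receptors Kdr, Flt1, Nrp1, Tek and Tie1. They were taken by symbol from the 28692 genes of the droplet matrices, and each symbol named 1 row. Raw unique molecular identifiers (UMIs, tags that count each captured RNA molecule once) were summed for each gene by library and by cell gate, that is, by tubule, podocyte, endothelial or phagocyte markers. The study used a reversible form of unilateral ureteric obstruction, UUO, where the outflow of a single mouse kidney is blocked and later reopened. The droplet libraries held live-sorted cells of whole digested kidneys of C57/BL6 mice aged 8 weeks. The sham group had sham surgery (day 0), the day 2 and day 7 groups were obstructed for 2 and 7 days, and the reversed group was sampled on experimental day 14, when 7 days had passed since the obstruction was undone. Each group was a single library of 3 pooled mice, so no spread between animals can be estimated. Intervals below are exact 95% intervals that cover counting error only, and no p-value is given for any comparison between groups.

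VEGF-A, encoded by Vegfa, is secreted by epithelial cells and binds receptor tyrosine kinases on the neighbouring endothelium. VEGFR2, encoded by Kdr, carries most of its signal, VEGFR1 (Flt1) binds the ligand tightly and can act as a trap, and neuropilin 1 (Nrp1) is a co-receptor that is also used by other ligands. In the angiopoietin branch, angiopoietin 1 (Angpt1) activates the receptor Tie2 (Tek) and steadies vessels, angiopoietin 2 (Angpt2) is a context-dependent ligand that can oppose it, and Tie1 is a partner receptor of Tie2. In the kidney, podocyte VEGF-A maintains the fenestrated glomerular capillaries, and tubule VEGF-A serves the peritubular capillaries.

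The libraries held 5938 (sham), 2739 (day 2), 4504 (day 7) and 3695 (reversed) cell barcodes and 18649637 to 30462683 UMIs. Below, 4 values in a row follow that order. After filtering 3738, 2161, 4293 and 3145 cells were kept, and pairs of libraries shared 16 to 39 barcodes. The sham library had the highest mitochondrial share: the median of its barcodes was 40.6%, against 3.0% to 16.2% in the other libraries. The cell mix moved with it, since tubule cells made up 89.0%, 55.9%, 17.2% and 52.5% of kept cells. The median was 34.5%, 20.8%, 11.5% and 27.7% within the tubule gate and 4.25%, 3.31%, 2.51% and 2.99% within the endothelial gate. The parts of cell mix and cell quality were not tested. The endothelial gate took 197, 160, 478 and 353 cells, the tubule gate 3326, 1208, 739 and 1650, the phagocyte gate 45, 513, 2282 and 539 and the podocyte gate 1, 3, 1 and 2. In the endothelial gate all 8 endothelial markers were found in each library, and their summed level was 6838 to 8027 CPM (UMIs per 1000000 UMIs of the gate), against 26.5 to 116 in the phagocyte gate and 48.7 to 118 in the tubule gate. Phagocyte markers summed to 3393 to 4709 CPM in their own gate. All levels below are CPM of a gate in a library, and since only transcript ends were read, they are compared for 1 gene across cells and not between genes.

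Vegfa, the main VEGF ligand, came mostly from the tubule by amount, in 3 of 4 libraries, and had its highest level in podocytes. The tubule gate held 94.3% of the Vegfa UMIs of kept cells in the sham library, 74.2% on day 2, 49.3% on day 7 and 75.0% in the reversed library. The tubule gate's share of kept cells moved with it. On day 7 cells of no gate held 20.6% of the Vegfa UMIs, phagocytes 18.1% and stromal cells, with collagen or mural markers, 7.01%. The stromal gate held 0, 2, 31 and 8 Vegfa UMIs. On day 7 these were 31 among 743640 UMIs of the stromal gate, beside 218 among 5889435 in the tubule gate. That difference was not tested. Only 7 podocytes were captured, 1, 3, 1 and 2 in the libraries, yet they carried 7, 5, 8 and 19 Vegfa UMIs. Their level was 1059 (426 to 2181) in the sham library, 560.2 (182 to 1307) on day 2, 1047 (452 to 2064) on day 7 and 1102 (664 to 1721) in the reversed library. The log2 ratio to the tubule level of the same library was 4.76 (3.44 to 5.82), 4.6 (2.97 to 5.85), 4.79 (3.56 to 5.79) and 4.68 (3.94 to 5.34), so podocytes lay above tubule cells in 4 of 4 libraries. The podocyte intervals overlap one another, and with 1 to 3 cells a library no comparison of podocytes between groups was made.

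In the tubule gate the Vegfa level was 38.1 (34.5 to 41.8) in the sham library, 22.1 (19.1 to 25.4) on day 2, 37.0 (32.3 to 42.3) on day 7 and 42.0 (38.2 to 46.0) in the reversed library. The day 2 interval lies below the other 3, which overlap. Vegfa UMIs were found in 10.5%, 12.8%, 23.3% and 20.1% of tubule cells, and in 0%, 0%, 0.317% and 1.17% of T cells, given for comparison. The median depth was 2731 to 7074 UMIs in tubule cells and 1792 to 3538 in T cells. With each cell thinned to 1000 UMIs the shares were 2.74%, 1.99%, 4.74% and 3.27% in tubule cells and 0%, 0%, 0% and 0.391% in T cells.

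Within each tubule segment that could be compared, Vegfa was also lower on day 2 than in sham, as the plot along the tubule shows. In the proximal tubule, the reabsorbing segment that made up 89.1% of sham and 49.5% of day 2 tubule cells, the level was 31.3, 14.4, 44.8 and 39.0. In the loop of Henle it was 83.1, 27.7, 27.3 and 52.7, in principal cells of the collecting duct 90.9, 29.2, 54.2 and 60.6, and in intercalated cells 83.4, 33.4, 31.1 and 51.9. The day 2 to sham log2 ratio was -1.07 (-1.51 to -0.65) in proximal, -1.55 (-2.09 to -1.0) in loop, -1.61 (-2.47 to -0.77) in principal and -1.30 (-2.17 to -0.40) in intercalated cells. In tubule cells of no named segment it was -0.97 (-1.86 to 0.01), an interval that just includes 0. Distal convoluted cells numbered 4 on day 2 and were not compared there.

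The later Vegfa ratios were not alike in size across segments, and differences between segments were not tested. From day 2 to day 7 the proximal log2 ratio was 1.57 (1.03 to 2.12) and the principal ratio 0.87 (0.06 to 1.71), while the loop and intercalated ratios were -0.02 (-0.65 to 0.58) and -0.10 (-1.09 to 0.85). From day 7 to reversal the loop ratio was 0.93 (0.31 to 1.56) and the proximal ratio -0.20 (-0.59 to 0.21). Against sham, the reversed ratio was 0.31 (0.07 to 0.54) in proximal and -0.65 (-1.20 to -0.09) in loop cells. The trimmed-mean shift of -0.58 for this pair over the tubule gate would turn the proximal ratio negative, so only the lower loop level keeps its direction. The principal and intercalated ratios of the same pair, -0.58 (-1.34 to 0.18) and -0.67 (-1.48 to 0.16), have intervals that include 0. In the sham library the loop level exceeded the proximal level by 1.38 (0.94 to 1.79) on the log2 scale, and on day 7 that difference was -0.70 (-1.32 to -0.09), so the order of these 2 segments was opposite.

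**Figure D1:**
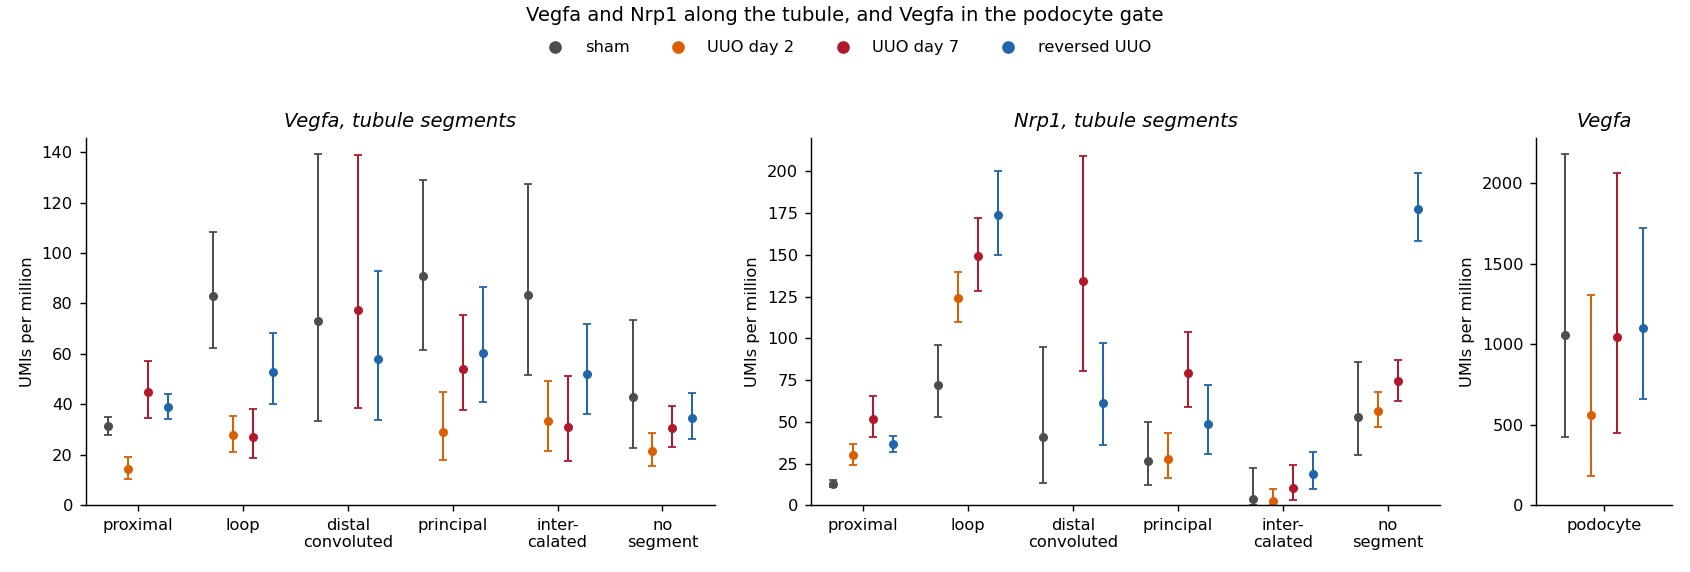
Vegfa and Nrp1 levels (CPM, linear axes from 0) in tubule segments with at least 20 cells, and Vegfa in the podocyte gate, for the 4 libraries. Points are sums over cells and bars exact 95% Poisson intervals; Vegfa on day 2 lies below sham in each segment shown for both, from 14.4 against 31.3 in proximal to 29.2 against 90.9 in principal cells, and Nrp1 in loop cells runs from 72.3 in sham to 174 after reversal.

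Summed over the whole tubule gate, the Vegfa log2 ratio was -0.76 (-1.0 to -0.52) for day 2 against sham, 0.72 (0.45 to 0.99) for day 7 against day 2, 0.18 (-0.05 to 0.41) for reversed against day 7 and 0.14 (-0.05 to 0.33) for reversed against sham. The segment mix and the mitochondrial share moved with these ratios: the median mitochondrial share of tubule cells was 34.5%, 20.8%, 11.5% and 27.7%. With cells held to at most 20% mitochondrial UMIs the day 2 to sham ratio was -1.63, and with mitochondrial genes left out of the total it was -1.03. The day 2 difference was larger under both settings. The 20% limit lies below the median of sham proximal cells, 34.6%, and above that of sham no-segment cells, 6.41%. It thus removed most sham proximal cells, and the part of the segment mix in that ratio was not tested. The reversed to sham ratio changed sign among the alternatives, from -0.49 with at most 20% mitochondrial UMIs to 0.38 with cells thinned to 1000 UMIs, and no direction is read from it. Scaling the tubule gate by trimmed means moved the median of all genes by -0.58 for both comparisons against sham, by -0.28 for day 7 against day 2 and by 0.27 for reversed against day 7.

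A promoter window of Vegfa is shown because its transcript differed between libraries within most tubule segments. The RefSeq table of GRCm38.p6 holds 2 Vegfa windows, and the one printed, listed first, runs from 250 bases before to 50 after the annotated start (chr17:46032328-46032627, minus strand; the files use GRCm38), written 5' to 3' on the gene's strand. Capitals mark the GC box letters GGGCGG, searched on both strands.
Vegfa: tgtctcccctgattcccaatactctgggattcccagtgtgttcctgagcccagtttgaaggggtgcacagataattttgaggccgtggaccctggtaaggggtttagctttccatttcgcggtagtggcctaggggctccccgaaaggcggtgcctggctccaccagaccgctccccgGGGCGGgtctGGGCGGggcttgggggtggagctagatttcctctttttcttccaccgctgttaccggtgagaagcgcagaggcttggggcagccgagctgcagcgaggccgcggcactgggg
The window holds 2 GC boxes, a motif that 35.7% of the 32851 promoters in the table hold at least once. The second window (chr17:46025114-46025413, minus strand), not printed, holds 1. The hypoxia core letters ACGTG or GCGTG, on both strands, occur 0 times in the printed and 2 times in the second window, and 43.8% of all windows hold them. A match of letters describes the window and is not evidence of a bound site.

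The angiopoietins were rare, and in sham and on day 2 the tubule gate held most UMIs of both. Angpt1, the Tie2 agonist, was found mainly in the tubule gate, which held 134, 34, 28 and 91 of 141, 39, 53 and 113 UMIs. Its tubule level was 11.9 (9.96 to 14.1) in the sham library, 3.79 (2.63 to 5.30) on day 2, 4.75 (3.16 to 6.87) on day 7 and 8.42 (6.78 to 10.3) in the reversed library. The sham interval lies above those of day 2 and day 7. The log2 ratio was -1.43 (-1.89 to -0.96) for day 2 against sham and 0.71 (0.17 to 1.26) for reversed against day 7. For reversed against sham it was -0.45 (-0.81 to -0.09), still lower than in sham over the whole gate. Among segments, principal cells had the levels 44.0, 11.7, 17.0 and 28.3 and proximal cells 11.8, 6.43, 3.56 and 10.1. The day 2 to sham ratio was -0.78 (-1.41 to -0.17) in proximal cells, lower on day 2, and -1.83 (-3.14 to -0.56) in principal cells. The principal ratio rests on 8 and 15 UMIs, under the minimum of 30 UMIs a pair, so no direction is read from it. For reversed against sham the ratio was -0.20 (-0.62 to 0.21) in proximal and -0.62 (-1.74 to 0.50) in principal cells, and both intervals include 0.

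Outside the tubule, Angpt1 was seen in the stromal gate, cells with collagen or mural markers, with 15 UMIs in 75 cells on day 7 and 12 in 55 cells after reversal. Those levels, 20.2 (11.3 to 33.3) and 29.1 (15 to 50.8), have intervals above those of the tubule gate in the same libraries. The sham and day 2 stromal gates held 1 and 9 cells and no Angpt1 UMI. Endothelial cells held 5, 0, 3 and 3 Angpt1 UMIs, and phagocytes 0, 0, 2 and 5. These counts are under the minimum of 30 UMIs a pair. Of the endothelial and phagocyte ratios built on them, day 2 against sham in endothelial cells (0 against 5 UMIs) has an interval below 0 and reversed against day 7 in phagocytes, 0.98 (0.19 to 1.38), one above it, and no direction is read from so few UMIs.

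Angpt2, the context-dependent Tie2 ligand, was found in several gates, and in 3 of 4 libraries most of its UMIs were in endothelial and tubule cells, which held 5 and 132 of the 173 UMIs in sham and 39 and 17 of 120 on day 7. Stromal cells also held Angpt2, with 7, 9 and 7 UMIs from day 2 on, at 93.3 (37.5 to 192) in 9 cells on day 2, 12.1 (5.53 to 23.0) on day 7 and 17.0 (6.82 to 34.9) after reversal, intervals that overlap the endothelial ones. Phagocytes held 0, 6, 21 and 9 UMIs at a level of 0, 1.06, 1.31 and 2.19, near the 0, 0, 2.96 and 3.07 of T cells. In the endothelial gate it had 5, 33, 39 and 41 UMIs, from 5, 12, 29 and 19 cells, and a level of 9.47 (3.07 to 22.1) in the sham library, 42.4 (29.2 to 59.6) on day 2, 19.2 (13.6 to 26.2) on day 7 and 25.2 (18.1 to 34.2) in the reversed library. The day 2 interval lies above that of sham and day 7, and the sham and reversed intervals overlap. The log2 ratio was 2.05 (0.77 to 3.51) for day 2 against sham and -1.11 (-1.79 to -0.42) for day 7 against day 2. Stromal markers in the endothelial gate, with 3, 6, 8 and 7 of 8 found, summed to 60.6, 132, 107 and 52.8 CPM. Their sum shared the direction of Angpt2 in these comparisons. From day 7 to reversal the stromal sum fell and the Angpt2 level did not. The part of stromal markers in the Angpt2 level was not tested. On day 2, 23 of the 33 UMIs were in the arterial sub-gate described below, which held 1 Angpt2 UMI in sham, a log2 ratio of 2.82 (0.41 to 5.31). The arterial sub-gate held 5 on day 7 and 17 after reversal, 2.11 (0.73 to 3.58) between them, while cells with a Gja5 UMI, a narrower arterial group, held 22 on day 2 and 0 after reversal. Both arterial pairs are under the minimum of 30 UMIs a pair, so no direction is read from either ratio. The peritubular sub-gate held 1, 8, 12 and 7 and the glomerular sub-gate 1, 0, 7 and 7.

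In the tubule gate Angpt2 lay mostly in cells that carried general epithelial markers and no segment's set. These no-segment cells numbered 58, 192, 225 and 185 and held 94, 110, 13 and 32 of the gate's 132, 117, 17 and 40 Angpt2 UMIs. Their level was 311 (251 to 381) in the sham library, 53.7 (44.1 to 64.7) on day 2, 6.61 (3.52 to 11.3) on day 7 and 19.0 (13 to 26.8) in the reversed library, and these intervals do not overlap. Angpt2 was found in 21, 32, 7 and 16 of these cells, 36.2%, 16.7%, 3.11% and 8.65%, or 25.9%, 5.73%, 0.889% and 1.62% with each cell thinned to 1000 UMIs. In proximal cells the level was 2.81, 1.53, 1.42 and 0.764, and principal cells held 0, 0, 0 and 0 UMIs. The sham to day 2 difference within the no-segment cells was -2.51 (-2.92 to -2.10) on the log2 scale, while that of the whole tubule gate was 0.14 (-0.20 to 0.49), with no-segment cells at 1.74% of the gate in sham and 15.9% on day 2. Cells that entered no gate also held Angpt2, at 92.9 (65.1 to 129) in sham and 10.0 to 11.7 in the other libraries. Whether the no-segment cells of the 4 libraries are the same kind of cell was not tested.

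**Figure D2:**
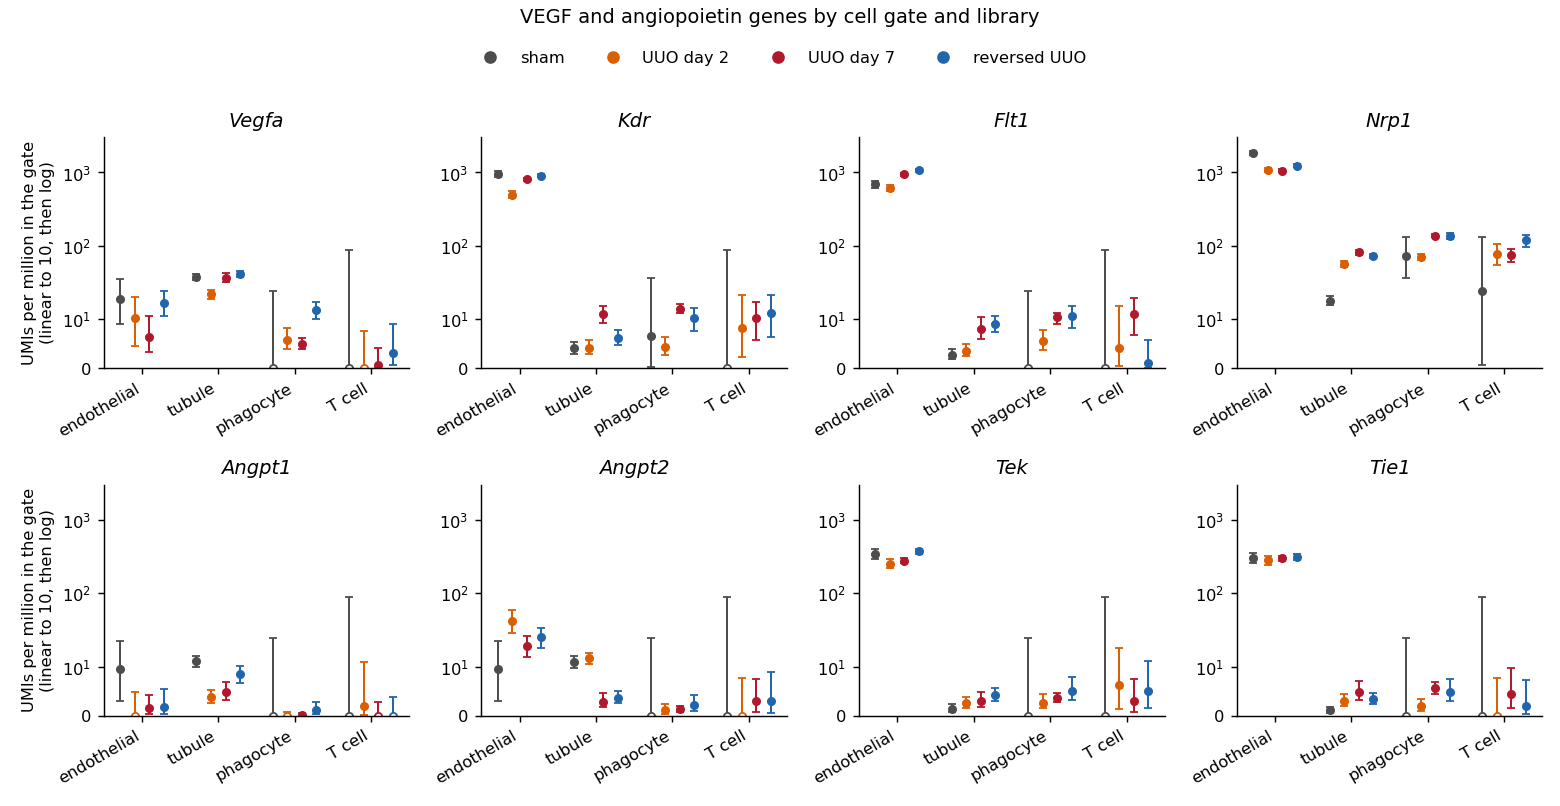
Levels of the 8 genes (CPM; the axis is linear to 10 and logarithmic above) in the endothelial, tubule, phagocyte and T cell gates of the 4 libraries. Points are gate sums, open where no UMI was found, and bars exact 95% Poisson intervals. Kdr, Flt1, Nrp1, Tek and Tie1 are highest in endothelial cells, where Kdr is 947 in sham and 499 on day 2. Of the gates shown, Vegfa is highest in the tubule.

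All 5 receptor genes had their highest level in endothelial cells among the gates with at least 20 cells. Kdr had 947 (865 to 1033) in the sham library, 499 (451 to 551) on day 2, 808 (769.7 to 848) on day 7 and 902 (857 to 949.6) in the reversed library. The day 2 interval lies below the other 3, and the sham and reversed intervals overlap. Flt1 had 689 (620.2 to 764) in the sham library, 621 (567 to 679) on day 2, 943 (901 to 986) on day 7 and 1070.0 (1020.3 to 1121) in the reversed library, with sham and day 2 overlapping and both below day 7, which lies below reversal. Nrp1 had 1836 (1723 to 1956) in the sham library, 1071 (999.9 to 1147) on day 2, 1054 (1009 to 1099) on day 7 and 1244 (1190.2 to 1299) in the reversed library: sham is the highest, and day 2 and day 7 overlap. Tek had 343, 255, 280.1 and 373 and Tie1 307, 280.4, 303 and 313, and the 4 Tie1 intervals overlap.

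Most endothelial cells carried at least 3 of the 5 receptors. Kdr was found in 72.6%, 67.5%, 80.3% and 80.7% of endothelial cells and in 0%, 3.45%, 4.44% and 4.69% of T cells, at a median depth of 2349 to 3746 and 1792 to 3538 UMIs. With cells thinned to 1000 UMIs the Kdr share was 55.3%, 26.9%, 48.5% and 50.4%, lowest on day 2. The thinned Nrp1 share was 72.1%, 50%, 51.3% and 58.9%, and that of Flt1 49.7%, 44.4%, 56.1% and 57.8%. The receptors Kdr, Flt1, Nrp1, Tek and Tie1 were all found in the same cell in 19.8%, 25%, 30.1% and 39.7% of endothelial cells. At least 3 of them were found in 76.6%, 86.2%, 88.7% and 90.9%, without thinning. Depth differs between the libraries, so no change is read from the co-detection counts.

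Promoters of the 4 receptors found mainly in the endothelial gate are printed because these genes share a cell type. Windows and strand are as for Vegfa: Kdr (chr5:75978406-75978705, minus strand), Flt1 (chr5:147725962-147726261, minus strand), Tek (chr4:94739039-94739338, plus strand) and Tie1 (chr4:118489800-118490099, minus strand). Capitals mark GGAA, the core of the sites that ETS transcription factors bind, and its reverse complement TTCC.
Kdr: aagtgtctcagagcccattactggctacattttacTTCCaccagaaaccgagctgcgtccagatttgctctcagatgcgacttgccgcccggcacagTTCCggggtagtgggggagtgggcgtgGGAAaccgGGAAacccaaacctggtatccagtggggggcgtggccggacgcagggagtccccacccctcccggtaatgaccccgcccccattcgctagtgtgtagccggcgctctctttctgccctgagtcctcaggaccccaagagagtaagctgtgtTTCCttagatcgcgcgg
Flt1: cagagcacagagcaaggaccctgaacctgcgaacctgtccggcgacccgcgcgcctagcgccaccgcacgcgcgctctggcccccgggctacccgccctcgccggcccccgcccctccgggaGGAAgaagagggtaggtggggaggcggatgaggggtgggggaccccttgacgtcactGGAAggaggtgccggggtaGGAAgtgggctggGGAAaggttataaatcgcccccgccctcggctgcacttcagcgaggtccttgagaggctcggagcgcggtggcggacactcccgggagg
Tek: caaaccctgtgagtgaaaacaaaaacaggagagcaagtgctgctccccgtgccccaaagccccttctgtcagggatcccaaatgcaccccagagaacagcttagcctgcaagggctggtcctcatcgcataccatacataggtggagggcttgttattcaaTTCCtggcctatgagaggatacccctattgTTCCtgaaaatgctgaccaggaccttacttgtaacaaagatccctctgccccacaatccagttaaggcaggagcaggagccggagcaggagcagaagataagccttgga
Tie1: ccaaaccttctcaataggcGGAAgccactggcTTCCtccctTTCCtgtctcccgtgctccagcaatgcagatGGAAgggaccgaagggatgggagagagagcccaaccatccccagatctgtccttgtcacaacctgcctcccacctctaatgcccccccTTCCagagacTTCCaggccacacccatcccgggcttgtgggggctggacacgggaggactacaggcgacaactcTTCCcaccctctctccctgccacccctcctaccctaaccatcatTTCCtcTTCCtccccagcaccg
The core occurs 5 times in the Kdr, 4 in the Flt1, 2 in the Tek and 9 in the Tie1 window. It is a short motif that 96.0% of all 32851 windows hold, with a mean of 3.52 matches, and 3.72% hold at least 8; the Tie1 count is above 8 and the other 3 are at 5 or below. The Nrp1 and Vegfa windows were also in the table, and Angpt1 and Angpt2 were not matched.

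The receptors separated into different vascular beds. The endothelial gate was divided by marker genes that are not members: arterial cells (at least 2 of Gja5, Sox17, Gja4, Fbln5 and Hey1), glomerular cells (Ehd3 without Plvap), peritubular cells (Plvap without Ehd3) and the rest. Plvap is on the VEGF-responsive list used below, and its endothelial level was 1410, 975, 1411 and 1505. Whether cells changed bed between libraries through Plvap was not tested. Kdr and Nrp1 were higher in glomerular than in peritubular cells, and Flt1 and Tek higher in peritubular cells, in 4 of 4 libraries. Kdr had 1541, 1436, 1882 and 2119.5 in glomerular and 739.6, 383, 519.7 and 564 in peritubular cells. Nrp1 had 2919.5, 2585, 2686 and 2842 and 1047, 529.8, 495 and 682. The glomerular to peritubular log2 ratio of Kdr was 1.06 (0.63 to 1.51), 1.91 (1.3 to 2.57), 1.85 (1.65 to 2.06) and 1.91 (1.67 to 2.15), and that of Nrp1 1.48 (1.13 to 1.85), 2.28 (1.78 to 2.83), 2.44 (2.24 to 2.64) and 2.06 (1.84 to 2.28). All 8 intervals lie above 0.

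The decoy receptor Flt1 had the opposite bias. It had 459.7, 759, 737 and 649.5 in glomerular and 1186, 1045, 1107 and 1227 in peritubular cells, with log2 ratios of -1.37 (-1.83 to -0.90), -0.46 (-0.95 to 0.03), -0.59 (-0.81 to -0.37) and -0.92 (-1.19 to -0.65). The day 2 interval includes 0 and the other 3 lie below it. For Tek the ratios were -0.98 (-1.60 to -0.35), -0.73 (-1.54 to 0.08), -0.35 (-0.72 to 0.02) and -1.06 (-1.54 to -0.60), below 0 in each library and beyond counting error in sham and after reversal. The Tie1 ratios were -0.07 (-0.84 to 0.75), -0.93 (-1.82 to -0.07), -0.87 (-1.30 to -0.45) and -1.30 (-1.83 to -0.80), beyond counting error in the 3 later libraries. The sham Tie1 ratio includes 0, and whether it differs from the later libraries was not tested.

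**Figure D3:**
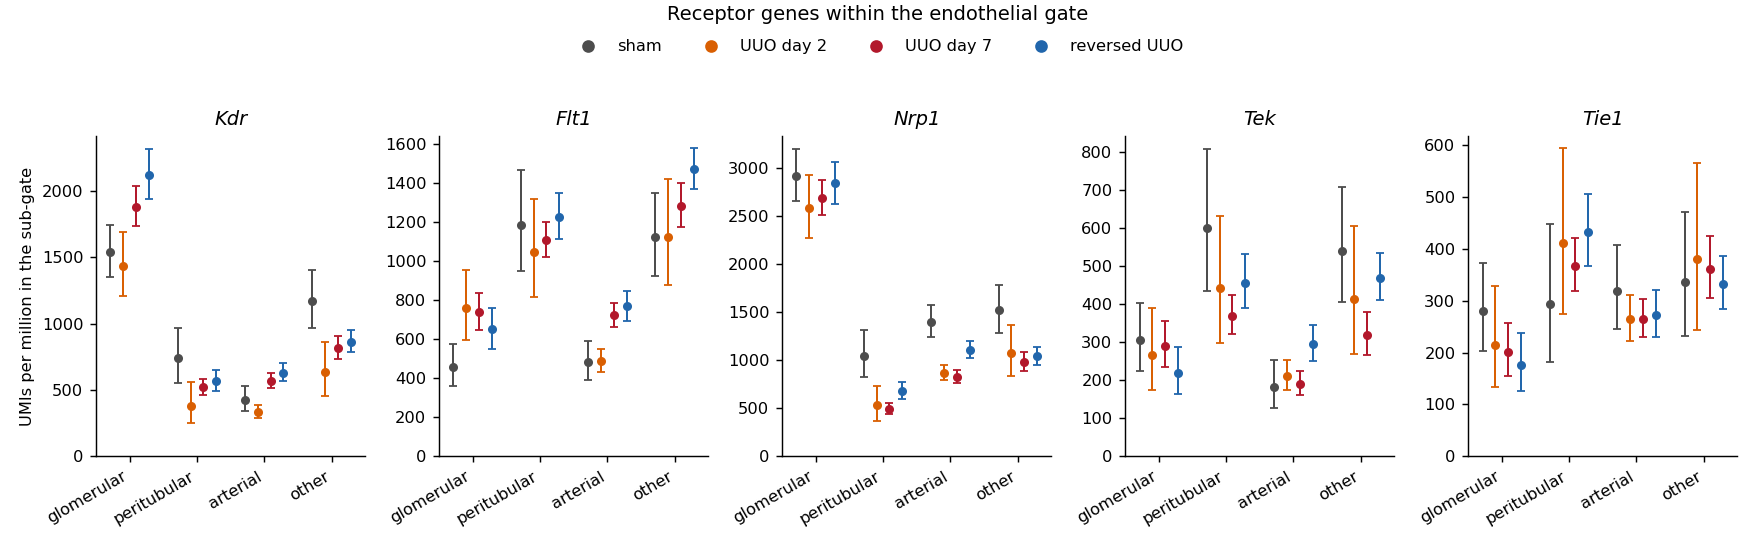
Levels of the 5 receptor genes (CPM, linear axes from 0) in the glomerular, peritubular, arterial and remaining endothelial cells of the 4 libraries. Points are sums over 16 to 146 cells and bars exact 95% Poisson intervals; Kdr and Nrp1 peak in glomerular cells, at 2119.5 and 2842 after reversal, while Flt1 and Tek are lower there than in peritubular cells.

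Between libraries, endothelial Kdr, Nrp1 and Tek were lower and Angpt2 higher on day 2 than in sham, while the Flt1 and Tie1 intervals include 0. The log2 ratio for day 2 against sham was -0.92 (-1.12 to -0.73) for Kdr, -0.78 (-0.91 to -0.64) for Nrp1, -0.43 (-0.72 to -0.13) for Tek, -0.15 (-0.35 to 0.05) for Flt1 and -0.13 (-0.43 to 0.17) for Tie1. Of the 8 members, 6 had at least 30 UMIs over the 2 libraries, and 1, Angpt2, differed by 2-fold or more. Among all 6098 genes with that many UMIs, 7.46% did so. From day 2 to day 7 Kdr was 0.69 (0.53 to 0.86) and Flt1 0.60 (0.46 to 0.75), both higher, and Nrp1 was -0.02 (-0.14 to 0.09). In that comparison Angpt2 alone of 6 members passed 2-fold, against 9.24% of all genes.

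After reversal, the 5 receptors differed from their day 7 levels by at most 1.33-fold. The log2 ratio to day 7 was 0.41 (0.25 to 0.58) for Tek, 0.24 (0.15 to 0.33) for Nrp1, 0.18 (0.09 to 0.28) for Flt1 and 0.16 (0.06 to 0.26) for Kdr. Vegfa, with 13 and 27 UMIs at 6.39 and 16.6 CPM, was the 1 member of 7 past 2-fold, at 1.25 (0.34 to 2.18), against 3.84% of all genes. At those levels a pseudocount of 10 CPM would take the Vegfa ratio under 2-fold. Proximal tubule markers in the endothelial gate, all 8 found in both libraries, moved with it, from 465 to 698 CPM, and their part in it was not tested. Against sham, Kdr was back at -0.07 (-0.22 to 0.08), Flt1 was higher at 0.63 (0.47 to 0.80) and Nrp1 stayed lower at -0.56 (-0.67 to -0.45). Of 7 members, Angpt2 passed 2-fold at 1.32 (0.07 to 2.76), against 9.71% of all genes. With a pseudocount of 10 CPM this ratio was 0.85 and that for day 7 against day 2 was -0.85, both under 2-fold, and with clusters in place of gates the latter was -0.82. Comparisons with sham share the sham library, and those with day 2 or day 7 share those libraries, so they are not independent of one another.

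**Figure D4:**
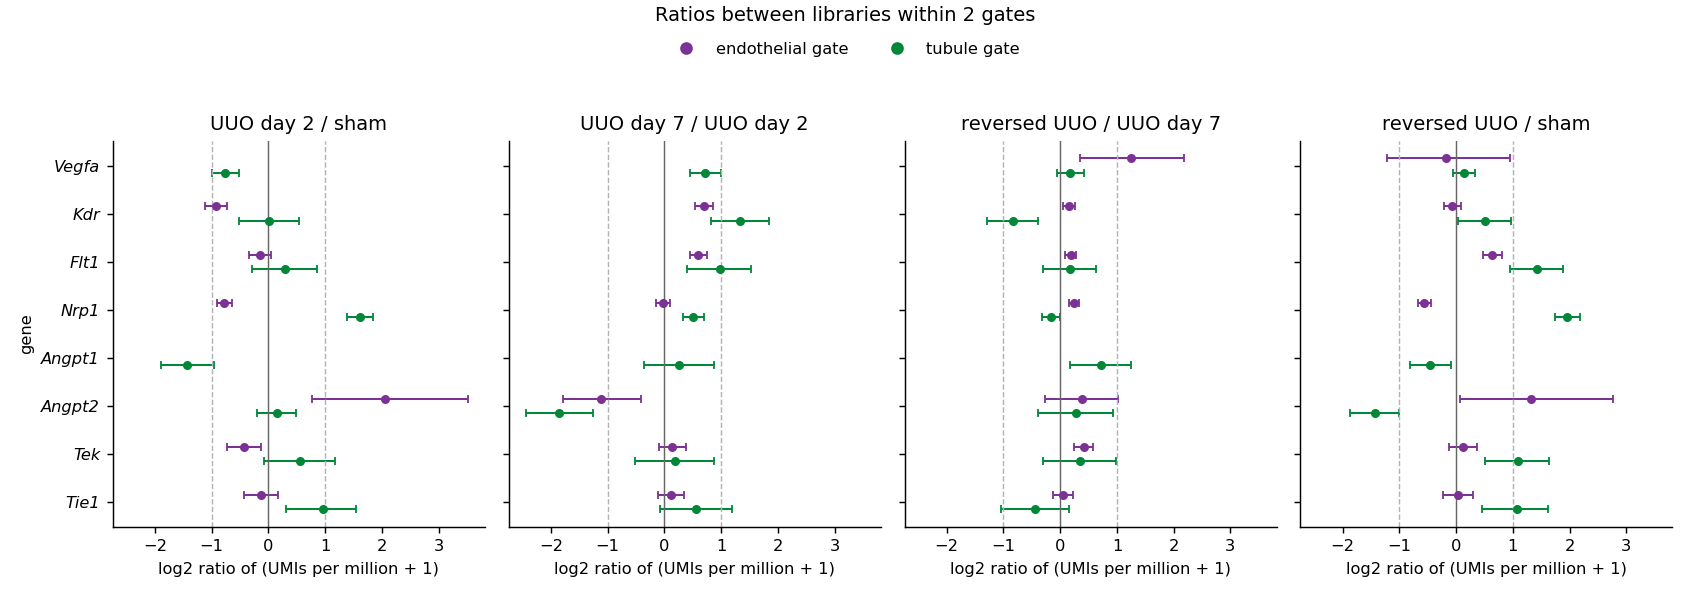
Log2 ratios of (CPM + 1) between libraries for members with at least 30 UMIs over the pair, in the endothelial and tubule gates; bars are exact 95% intervals and dashed lines mark 2-fold. Nrp1 on day 2 against sham lies at -0.78 in endothelial and 1.61 in tubule cells.

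The mix of vascular beds moved with these ratios. Arterial cells made up 28.9% of endothelial cells in sham and 61.9% on day 2, and glomerular cells 32.0% and 15.6%. By the narrower arterial definition, a Gja5 UMI, there were 13 of 197 cells in sham and 31 of 160 on day 2. The sham arterial sub-gate also held the glomerular marker Ehd3, at 998 CPM against 4224 in glomerular cells. Within the sub-gates the Kdr day 2 to sham log2 ratio was -0.10 (-0.41 to 0.20) in glomerular, -0.95 (-1.68 to -0.25) in peritubular and -0.36 (-0.74 to 0.03) in arterial cells, and of these 3 intervals only the peritubular one leaves out 0. With the sub-gates weighted equally in both libraries the whole-gate ratio was -0.48 in place of -0.92. For Nrp1 the same ratios were -0.18 (-0.40 to 0.05), -0.98 (-1.60 to -0.39) and -0.69 (-0.90 to -0.47), lower in peritubular and arterial cells. For Flt1 they were 0.72 (0.24 to 1.21) in glomerular, -0.18 (-0.66 to 0.29) in peritubular and 0.02 (-0.33 to 0.37) in arterial cells, higher in glomerular cells. For Tek they were -0.19 (-0.93 to 0.52), -0.44 (-1.16 to 0.26) and 0.21 (-0.34 to 0.79), and all 3 intervals include 0. The equal mix gave -0.44 for Nrp1 and -0.29 for Tek. From day 2 to day 7 the Flt1 ratio was -0.04 (-0.43 to 0.35) in glomerular, 0.08 (-0.27 to 0.46) in peritubular and 0.57 (0.36 to 0.79) in arterial cells, so of these 3 beds it was higher beyond counting error in arterial cells alone, and the equal mix gave 0.17 in place of 0.60.

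From sham to reversal, glomerular Kdr was higher by 0.46 (0.24 to 0.69) and arterial Kdr by 0.57 (0.22 to 0.93), while peritubular Kdr was -0.39 (-0.83 to 0.07) and that of the remaining cells lower, at -0.44 (-0.74 to -0.13). Nrp1 was lower in peritubular cells, at -0.62 (-1.0 to -0.22), in arterial cells, at -0.33 (-0.54 to -0.12), and in the remaining cells, at -0.54 (-0.81 to -0.27), and glomerular Nrp1 was -0.04 (-0.21 to 0.13). Arterial Flt1 was higher by 0.67 (0.35 to 1.01) and arterial Tek by 0.69 (0.17 to 1.25). Tek was -0.48 (-1.07 to 0.11) in glomerular, -0.40 (-0.89 to 0.12) in peritubular and -0.20 (-0.64 to 0.26) in the remaining cells. Those Tek intervals cover both directions. Peritubular Flt1 was 0.05 (-0.29 to 0.40). Flt1 was also higher in glomerular cells, by 0.50 (0.09 to 0.92), and in the remaining cells, by 0.39 (0.10 to 0.69), and glomerular Tie1 was lower, at -0.67 (-1.31 to -0.03). Sub-gate differences in these ratios were not tested, and 25 glomerular and 20 peritubular cells stand behind the day 2 values.

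Nrp1 was also found outside the endothelium, and in tubule cells it was higher in the later libraries than in sham. In the tubule gate it had 17.9 (15.5 to 20.6) in the sham library, 56.9 (52.0 to 62.0) on day 2, 81.5 (74.4 to 89.1) on day 7 and 72.6 (67.6 to 77.9) in the reversed library, and the sham interval lies below the other 3. The log2 ratio was 1.61 (1.38 to 1.84) for day 2 against sham, 3.06-fold, and 1.96 (1.74 to 2.18) for reversed against sham, 3.89-fold. By segment it was 72.3, 124, 149 and 174 in the loop of Henle and 12.9, 30, 51.9 and 36.7 in the proximal tubule, with loop above proximal in 4 of 4 libraries. The T cell level was 24.0 (0.608 to 134) in the sham library, 76.8 (54.1 to 106) on day 2, 74.7 (60.8 to 90.7) on day 7 and 119 (98.0 to 142) in the reversed library. The whole tubule interval overlaps that of T cells in sham, on day 2 and on day 7 and lies below it after reversal, while the loop interval lies above it in the 3 later libraries. The day 2 to sham ratio was 1.16 (0.78 to 1.53) in proximal, 0.77 (0.33 to 1.24) in loop, 0.07 (-1.10 to 1.33) in principal and 0.09 (-0.65 to 0.93) in no-segment cells. With segments weighted equally the whole-gate ratio was 0.50, and with at most 20% mitochondrial UMIs 0.28, in place of 1.61. For reversed against sham those settings gave 1.41 and 1.38.

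In phagocytes Nrp1 had 73.0 (36.4 to 131) in the sham library, 70.4 (63.7 to 77.7) on day 2, 138 (132 to 143) on day 7 and 137 (126 to 149) in the reversed library, and in stromal cells 160.0, 281 and 344 from day 2 on. It was found in 22.2%, 40.5%, 52.3% and 53.4% of phagocytes and 5.56%, 19.0%, 19.0% and 23.0% of T cells, at median depths of 2815 to 9961 and 1792 to 3538 UMIs. Thinned to 1000 UMIs the shares were 4.44%, 6.43%, 13.2% and 12.1% and 0%, 6.03%, 6.35% and 7.03%. The phagocyte to T cell log2 ratio was -0.12 (-0.61 to 0.40) on day 2, 0.87 (0.59 to 1.17) on day 7 and 0.21 (-0.08 to 0.50) after reversal, so phagocytes exceeded T cells beyond counting error on day 7 alone. Nrp1 is a known surface protein of regulatory T cells, so T cells are not an empty reference for it. Between day 2 and day 7 the phagocyte ratio was 0.96 (0.80 to 1.11). In the phagocyte gate endothelial markers went from 42.2 to 116 CPM and stromal markers from 10.2 to 105 CPM over the same pair, and their part in the ratio was not tested.

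The proportion of Nrp1 to Kdr differed between gates. Nrp1 UMIs per Kdr UMI were 1.3 (1.22 to 1.39) in endothelial cells on day 7, 6.86 (5.33 to 8.94) in tubule cells, 9.83 (8.56 to 11.3) in phagocytes, 7.21 (4.11 to 13.7) in T cells and 26.1 (13 to 61.3) in stromal cells. After reversal they were 1.38 (1.29 to 1.48) in endothelial and 11.7 (9.12 to 15.3) in tubule cells. The endothelial intervals lie below those of the other gates named. Phagocyte markers in the tubule gate summed to 14.3, 72.4, 236 and 94.1 CPM and endothelial markers to 48.7, 56.0, 118 and 94.4, all 8 of each found, and they were lowest in sham, as Nrp1 was. Their part, and that of free RNA, in the tubule Nrp1 level was not tested.

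The other receptors outside the endothelium were found at low levels, mostly near those of T cells. Kdr had 4.08, 4.13, 11.9 and 6.2 in the tubule, 6.63, 4.24, 14.0 and 10.5 in phagocytes and 0, 8.31, 10.4 and 12.3 in T cells. Flt1 had 2.75, 3.57, 7.98 and 9.07, 0, 5.47, 10.6 and 11.2 and 0, 4.15, 11.8 and 1.02 in the same gates, Tek had 1.42, 2.56, 3.06 and 4.16, 0, 2.65, 3.62 and 5.11 and 0, 6.23, 2.96 and 5.11, and Tie1 had 1.06, 3.01, 4.92 and 3.33, 0, 1.94, 5.56 and 4.87 and 0, 0, 4.44 and 2.04. Flt1 after reversal lay above its T cell level, which rests on 1 UMI, in the tubule and in phagocytes. The other values lie near those of T cells, a cell type that should lack the genes, and whether they are background was not tested. The ratios of Kdr, Flt1, Tek and Tie1 in tubule cells and phagocytes are therefore counted below but not described as changes.

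Over the tubule gate all 8 members had at least 30 UMIs in each comparison. For day 2 against sham 1 member (Nrp1) was 2-fold higher and 1 (Angpt1) 2-fold lower, where 25.1% of all genes passed 2-fold in either direction, 2500 of 2995 of them upward. With a pseudocount of 10 CPM the Angpt1 ratio was -0.67, under 2-fold. For day 7 against day 2 Kdr was higher and Angpt2 lower, at 1.33 and -1.85, against 7.31% of genes. For reversed against day 7 no member passed 2-fold, against 8.36%. For reversed against sham Nrp1, Flt1, Tek and Tie1 were higher and Angpt2 lower at -1.43, 5 of 8, against 21.3%. With a pseudocount of 10 CPM both Angpt2 ratios were under 2-fold, at -0.84 from day 2 to day 7 and -0.66 from sham to reversal. The latter was -3.46 with at most 20% mitochondrial UMIs and -3.56 with segments weighted equally. The trimmed-mean shift of -0.58 takes Flt1, Tek and Tie1 below 2-fold against sham. The median gene in the tubule gate was itself 0.50 for day 2 and 0.46 for reversed against sham, so the member ratios stand beside a general shift of that size. The member medians were 0.21 and 0.79.

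In phagocytes Vegfa was higher after reversal than on day 2 and day 7. It had 0, 33, 80 and 55 UMIs and a level of 0 (0 to 24.5) in the sham library, 5.82 (4.01 to 8.18) on day 2, 5.0 (3.96 to 6.22) on day 7 and 13.4 (10.1 to 17.4) in the reversed library, with a reversed interval above those of both obstructed libraries. The reversed to day 7 log2 ratio was 1.26 (0.80 to 1.72), the 1 member of 7 past 2-fold, where 3.34% of all genes passed. It was 0.64, under 2-fold, with a pseudocount of 10 CPM. Subtracting free RNA gave 1.84, with the free RNA profile taken from the sum of all cell barcodes, phagocytes included. Such a profile also removes the phagocytes' own transcripts, so 1.84 does not show what free RNA contributed. The 8 proximal tubule markers (among them Lrp2 and Cubn, the megalin and cubilin genes), all found in each library, summed to 650.0, 90.2, 70.6 and 334 CPM in the phagocyte gate and were higher after reversal than on day 7, so they moved with the Vegfa level, and their part in it was not tested. For day 7 against day 2 Kdr, at 1.52 (1.00 to 2.05), and Tie1, at 1.16 (0.49 to 1.79), both near the T cell level, were the 2 of 6 members past 2-fold, against 10.5% of genes. Against sham, Vegfa and Flt1 were past 2-fold of 3 members on day 2 and of 4 after reversal, against 32.8% and 27.1% of genes. Both had 0 UMIs in the 45 sham phagocytes, where 3 UMIs would already be 19.9 CPM, above the later levels, so no difference from sham was detectable.

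Of 28 other genes of the pathway, Aplnr, the apelin receptor, had the largest endothelial ratio among those with at least 30 UMIs over a pair. It had 28.4 (15.9 to 46.8) in the sham library, 34.7 (22.9 to 50.5) on day 2, 231 (211 to 253) on day 7 and 284 (258 to 311) in the reversed library, and the sham and day 2 intervals lie below day 7 and reversal. Its log2 ratio was 2.70 (2.15 to 3.30) for day 7 against day 2 and 3.28 (2.56 to 4.09) for reversed against sham. Its level was 139.6, 177, 430.1 and 492 in peritubular, 40.8, 79.2, 367 and 402 in the remaining, 5.07, 18.2, 96.7 and 156 in arterial and 0, 0, 22.3 and 0 in glomerular cells, lowest in glomerular cells in each library. The bed mix moved with the whole-gate ratio, since peritubular cells made up 12.5% of endothelial cells on day 2 and 30.5% on day 7. The level was also higher on day 7 than on day 2 within peritubular, remaining and arterial cells, with intervals that do not overlap. The ligand Apln had 20.8, 59.2, 59.0 and 46.7, with a day 2 to sham ratio of 1.46 (0.52 to 2.50). Nrp2, a co-receptor for VEGF-C, had 96.6, 47.6, 160.2 and 193, -1.01 (-1.64 to -0.38) for day 2 against sham and 1.73 (1.24 to 2.25) for day 7 against day 2.

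Esm1 (endocan), a gene known to respond to VEGF, had nearly equal levels in sham, day 7 and reversed endothelial cells and a lower one on day 2: 517 (457 to 582) in the sham library, 216 (185 to 251) on day 2, 525 (494 to 557) on day 7 and 509 (475 to 545) in the reversed library. From sham to reversal the vascular beds behind that sum differed in opposite directions, higher in glomerular and arterial and lower in peritubular and remaining cells. Glomerular cells had 12.4 (1.5 to 44.9) in the sham library, 61.5 (22.6 to 134) on day 2, 236 (185 to 296) on day 7 and 671 (570.1 to 784) in the reversed library, and peritubular cells 1061 (836 to 1327) in the sham library, 647 (470.5 to 869) on day 2, 815 (742 to 894) on day 7 and 335 (278 to 401) in the reversed library. Arterial cells had 192, 98.4, 302 and 401, and the remaining cells, which held 157 of the 273 sham UMIs, 1599.8, 1014, 761 and 671. The glomerular to peritubular log2 ratio was -6.31 (-8.76 to -4.48) in sham and 1.00 (0.65 to 1.35) after reversal. Igfbp3, a further gene of the VEGF-responsive list, had 689, 1025, 1761 and 763, with a reversed to day 7 ratio of -1.20 (-1.30 to -1.11).

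Counted over the pathway list in the endothelium, the genes past 2-fold were 1 higher and 2 lower of 19 with enough UMIs for day 2 against sham, 4 higher and 2 lower of 26 for day 7 against day 2, 0 higher and 3 lower of 25 for reversed against day 7 and 2 higher and 1 lower of 22 for reversed against sham. Of all genes 7.46%, 9.24%, 3.84% and 9.71% passed 2-fold in the same order. The list medians were -0.20, 0.16, -0.03, 0.08 in that order, and those of all genes -0.05, 0.05, 0.03, 0.03. Of the 7 other receptors, Nrp2 was lower on day 2, just past 2-fold and under it with the trimmed-mean shift of 0.07 for that pair, and Nrp2 and Aplnr were higher on day 7. No oxygen-sensing gene passed 2-fold in the endothelium, of 2 with enough UMIs for day 2 against sham and 5 in the other 3 comparisons. In the tubule the list had 7 higher and 0 lower of 19, 6 higher and 0 lower of 19, 0 higher and 2 lower of 22 and 6 higher and 0 lower of 21, beside 25.1%, 7.31%, 8.36% and 21.3% of all genes, which in both comparisons with sham were mostly higher too. The trimmed-mean shift of -0.58 for both comparisons with sham takes Pdgfb below 2-fold in both and Esm1 after reversal. It brings Nrp2 on day 2 and Dll4 after reversal to about 2-fold. Cxcr4 and Igfbp3 stay past 2-fold on day 2, and Nrp2, Plvap and Igfbp3 after reversal. From day 7 to reversal the shift of 0.27 takes Unc5b below it. The 6 higher for day 7 against day 2 were Ptprb, Unc5b, Esm1, Dll4, Plvap and Pdgfb, several of them endothelial genes, and endothelial markers in the tubule gate went from 56.0 to 118 CPM in that comparison, whose part was not tested. The trimmed-mean shift of -0.28 for this pair takes Ptprb, Dll4 and Pdgfb below 2-fold. The oxygen-sensing gene Hif1a, which encodes the hypoxia-inducible factor subunit, had 35.1, 83.4, 102 and 52.6 in the tubule, with 1.22 (1.05 to 1.40) for day 2 against sham. Egln3, a hydroxylase of the same factor, had 2.93, 7.02, 6.11 and 6.01, with 1.03 (0.52 to 1.53), and the ligand Angptl4 6.92, 19.0, 18.8 and 11.3, with 1.33 (0.98 to 1.69). The median tubule gene was itself 0.50 in this comparison, and the trimmed-mean shift of -0.58 takes Hif1a, Egln3 and Angptl4 below 2-fold. In the same comparison Vegfa, a known target of that factor, was -0.76. In phagocytes the list had 6 higher and 0 lower of 24 for day 7 against day 2 and 1 higher and 1 lower of 25 from day 7 to reversal, beside 10.5% and 3.34% of all genes. Several of the listed genes past 2-fold were endothelial genes at low levels there (Plvap 0, 7.77, 26.2 and 24.6). No count against sham phagocytes is read, since most of the genes past 2-fold there had 0 or 1 sham UMI.

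The genes whose levels followed each member most closely were taken among 12064 genes with at least 200 UMIs. Levels were compared over 36 sums by library with at least 20 cells. The sums were of the phagocyte, T cell and stromal gates, the tubule segments (no-segment cells included) and the endothelial gate, not divided into sub-gates. These sums share libraries, depth and cells, so the correlations (Pearson, log2 of CPM + 1) are descriptions. Vegfa was most like Gabarapl1 (0.91), Kif1c (0.90) and Agbl3 (0.90). Kdr was most like Podxl (0.92), the podocalyxin gene, Exoc3l and Sox17. Flt1, Tek and Tie1 were near one another: Flt1 with Igfbp3 (0.95), Tek and Tie1; Tek with Flt1 (0.95), Grrp1 and Ldb2; and Tie1 with Grrp1 (0.96), Flt1 and Ripply3. Nrp1 was most like Camk2d (0.88), Jam2 and Esm1. Angpt2 was most like Tshz2 (0.80), Nid2 and the water channel gene Aqp1, and Angpt1 like Col27a1 (0.73), Tbx2 and Ccdc68, over 483 and 333 UMIs.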

How the data were processed

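RNA of single cells was measured in 4 droplet libraries (10x 3' V2) and 768 Smart-seq2 wells. The authors deposited whole-number UMI counts per gene and cell, made with Cell Ranger and STAR on GRCm38 (mm10) per the submitters' processing notes, and read counts per well. Versions and cell filters are not given in the sources used here.

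Cells with under 200 genes or over 50% mitochondrial UMIs were left out. Doublet scores came from Scrublet in scanpy 1.11.5. Its automatic threshold marked 2 to 4 cells a library and had not worked, so the top-scoring 195, 46, 154 and 91 cells were removed, at a rate of 0.8% per 1000 cells. A cell entered a gate with at least 3 of 8 markers of a lineage and at least 2 more than of any other. Podocytes also needed at least 1 defining podocyte marker. Counts were summed per gate and library; cells are not replicates, so no test was run. Levels have exact Poisson intervals and shares of cells exact binomial (Clopper-Pearson) intervals. Ratios are log2 of CPM (UMIs per 1000000 UMIs of the gate) with a pseudocount of 1, so they understate differences of rare genes, and have exact conditional binomial intervals. A ratio was counted as past 2-fold with at least 30 UMIs over the pair. A count of 0 allows up to 3 UMIs, which is the limit used for absent genes. edgeR 4.0.16 and DESeq2 1.42.0 gave only scaling factors for alternatives, and the ratio script was tested on simulated data. The members and lists, the pathway list included, were chosen with earlier results of these data known. Named genes were all members, pathway genes with at least 30 UMIs in the gate, and the 3 genes most correlated with each member. The sub-gate values of Esm1 and Aplnr, and the tubule group with most Angpt2, were singled out after their values were seen. No per-sample column was left unmapped.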

Additional observations from a re-analysis of the deposited data

Results flagged for a closer look

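Nrp1 differed in direction between gates under the same contrast. For day 2 against sham its log2 ratio was -0.78 in endothelial and 1.61 in tubule cells. For reversed against sham it was -0.56 in endothelial cells, 1.96 in tubule cells and 0.90 in phagocytes. Each of these intervals leaves out 0, but the differences between gates were not tested, since each group is 1 library. The sham phagocyte value rests on 11 UMIs in 45 cells. The tubule ratio for day 2 against sham ranged from 0.28 to 1.76 among the alternatives, beside 0.50 for the median tubule gene. By segment it was 1.16 in proximal and 0.77 in loop cells. In principal and no-segment cells it was 0.07 and 0.09, with intervals that include 0.

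Angpt2, for reversed against sham, was 1.32 in endothelial and -1.43 in tubule cells. Kdr, for reversed against day 7, was 0.16 in endothelial and -0.84 in tubule cells, and the tubule Kdr level is near that of T cells. Neither difference was tested.

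The Smart-seq2 plates mix all time points without a label per well and enter no comparison above. Of 768 wells, 416 had at least 50000 reads, 403 of them passed the phagocyte gate and 0 the endothelial gate. Nrp1 reads were found in 63.7% of the 416 wells (58.9% to 68.3%, exact binomial), Flt1 in 7.93%, Kdr in 4.33%, Angpt2 and Tek each in 2.4%, Vegfa in 1.68% and Tie1 in 1.44%. These shares are above the 0.721% that a count of 0 would allow, but the intervals of Vegfa (0.679% to 3.44%) and Tie1 (0.531% to 3.11%) include it. The median in wells with a read was 4 reads for Nrp1 and 1 for Kdr, Flt1 and Tek. Angpt1 was at that limit, with reads in 3 wells. Full-length reads without molecular identifiers are not independent molecules, so the intervals cover counting error only.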

How the results depend on the processing

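Of 108 recomputed values of the 4 Kdr endothelial and 4 Vegfa tubule ratios, 92 stayed within their counting interval of the value reported, and 471 of 540 for the other members. For Kdr the exception was an equal mix of the 4 sub-gates, chosen after seeing the data, which gave -0.48 (day 2 to sham), 0.44 (day 7 to day 2) and 0.11 (reversed to sham). For Vegfa, day 2 against sham was -1.33 under trimmed-mean scaling, -1.34 under median-of-ratios scaling, -1.63 with at most 20% mitochondrial UMIs, -1.03 without mitochondrial genes and -1.36 with an equal segment mix. Day 7 against day 2 was 0.43 under median-of-ratios scaling. Reversed against day 7 was 0.44 under both scalings. Reversed against sham was -0.43 and -0.46 under the scalings, -0.49 at 20% mitochondrial UMIs, -0.47 with an equal segment mix and 0.38 with cells thinned to 1000 UMIs, so its direction is not stable. Thinned ratios are means of 10 draws, a choice made after single draws of rare genes had scattered. Tubule Angpt2 for day 2 against sham, 0.14, ranged from -2.44 to 0.33. The cause of these shifts was not tested. Without the minimum of 30 UMIs, genes past 2-fold rose to 4319, 2905, 1667 and 3547 in the endothelial comparisons (455, 797, 361 and 774 with it) and to 5727 and 5759 in the phagocyte comparisons with sham (2906 and 2328); the added genes have few UMIs. Clusters of all cells were each named by the lineage that most of their gated cells had, and 99.5% of gated cells lay in a cluster of their own lineage. Since the names came from the gates, this share describes how pure the clusters were and is not an independent check. A looser podocyte gate gave the same 7 cells. Endothelial cells with a Gja5 UMI, an alternative arterial group added after seeing the data, had Kdr at 351, 466, 432 and 627 CPM. No paired analysis was possible because each group is 1 library. The 1 to 3 podocytes and 45 sham phagocytes limit what those gates can show.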
